A study of Rattus norvegicus with 6 samples.

Results

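The growth hormone and prolactin axis was followed here through 7 genes of the rat pituitary gland, picked by symbol from the count files, which list 33294 genes. They are the hormone genes Gh1 and Prl, the lineage factor Pou1f1, and the receptor genes Ghrhr, Ghsr, Ghr and Prlr. All 7 were present in the files and all 7 passed the filter on low counts. RNA was sequenced from the pituitary of 3 male Sprague-Dawley rats born to dams that carried a pump delivering nicotine tartrate (6 mg/kg per day) and of 3 male rats born to dams with a saline pump. All rats were 11 weeks old, and each gave 1 library. Nicotine was given to the dams, and whether rats of a group came from the same litter is not given in the sources used here, so p-values measure the spread between these 6 rats.

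Growth hormone is made by the somatotrophs of the anterior lobe and prolactin by the lactotrophs. Both cell types, together with the thyrotrophs, depend on POU1F1, also called Pit-1, a POU homeodomain protein that binds the promoters of the hormone genes. Hypothalamic GHRH acts on its receptor on somatotrophs to raise cyclic AMP and growth hormone output, ghrelin acts through GHSR, and somatostatin restrains release, while prolactin release is held down by dopamine. GHR and PRLR are class I cytokine receptors that signal through JAK2 and STAT5, and in the gland they can respond to the hormones made there.

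Total counts ranged from 46239801 to 85977002 in the nicotine libraries and from 28318383 to 54309256 in the control libraries. The median total of the nicotine group was 1.70 times that of the controls, so nicotine values rest on more counts. The groups follow the sample labels. The list of read numbers in the supplement of the study ranks the groups the other way, with more reads in controls. As labelled, the lowest, middle and highest nicotine totals are each larger than the matching read numbers of the list, whereas with the groups exchanged the totals would be a similar share of the listed reads in every library. The files alone do not show which of the sources is in error. If the labels of the count files were exchanged, every direction given here would turn over. Gh1, Pomc and Prl, which mark hormone cells of the pituitary, had the largest shares of the counts. In contrast, 5 testis germ cell genes had at most 5 counts in any library. These were Prm1, Prm2, Tnp1, Tnp2 and Odf1, added because the deposited extraction text describes testis. Nicotine replicate 2 lay furthest from the other libraries, at a mean Euclidean distance of 90.8 over the log2 CPM (counts per 1e6 after TMM scaling) of all genes tested against 72.0 to 80.7 for the other 5 libraries. The log2 fold changes of the axis genes and the difference in the Prl to Gh1 ratio are given with and without it. The SD within groups, the correlations between genes and the counts of cell type markers were computed with it only.

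None of the 7 axis genes differed between the groups beyond the spread between rats. The call rule was that of the study, an adjusted p below 0.1 and more than a 1.5-fold difference. By edgeR's quasi-likelihood test it was met by 0 of 7 axis genes and by 0% of the 17292 genes tested, where the smallest adjusted p was 0.103. At an unadjusted p under 0.05 the count was also 0 of 7, against 5.85% of all genes tested (6.14% with the newer moderation of edgeR, tried after seeing the data, where it was again 0 of 7). For 0 of 7 were the nicotine and control libraries free of overlap, against 11.3% of all genes, 6.12% higher and 5.14% lower after nicotine. DESeq2 called 0 of 7 at the same thresholds, against 0.339% of all genes, and had 0 of 7 at an unadjusted p under 0.05, against 4.7% of all genes. limma voom with sample quality weights had 0 of 7 at an unadjusted p under 0.05, against 6.81%. The fitted log2 fold change (nicotine minus control) was above 0 for 6 of the 7 genes, with a median of 0.33, while 51.2% of all genes tested were above 0, with a median of 0.0079. Without nicotine replicate 2 it was above 0 for 5 and below 0 for 2 of the 7 genes, with a median of 0.069, while 46.9% of all genes were above 0. In bulk tissue, fewer cells of a type and less RNA per cell cannot be told apart.

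**Figure D1:**
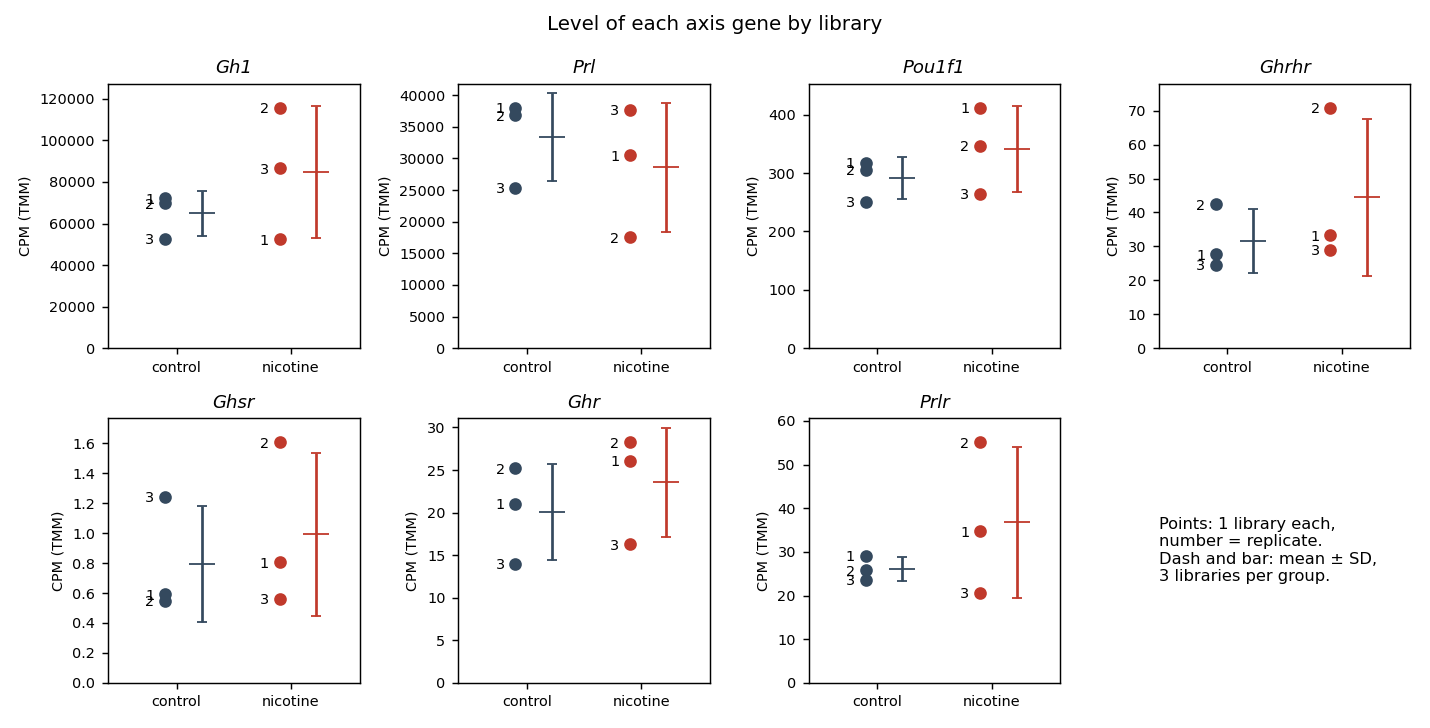
Level of each of the 7 axis genes in CPM after TMM scaling (linear axes from 0), with 1 point per library labelled by its replicate number and the mean ± SD of 3 libraries beside the points. Control and nicotine points overlap in every panel, and nicotine replicate 2 is the highest library for 5 genes and the lowest for Prl.

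Gh1, the growth hormone gene, had the highest mean share of the counts, although Pomc was above it in control replicate 3 (7.33% against 5.37%). It took 5.34%, 12.4% and 8.32% of the total in nicotine replicates 1, 2 and 3 and 6.89%, 6.80% and 5.37% in control replicates 1, 2 and 3. Its level was 52429, 115788 and 86557 CPM in nicotine replicates 1, 2 and 3, against 72086, 69810 and 52651 CPM in control replicates 1, 2 and 3. The nicotine group thus held both the highest and the lowest level, and its values spanned 2.21-fold against 1.37-fold among controls. The means were 84925 ± 31711 CPM after nicotine and 64849 ± 10625 CPM in controls (SD, n = 3 each). The fitted log2 fold change was 0.39 (SE 0.36, 95% interval -0.41 to 1.19, edgeR adjusted p = 0.861), and an exact two-sided permutation test of the log2 CPM gave p = 0.5, where the smallest p that 3 libraries against 3 allow is 0.1. The interval spans 0.751-fold to 2.28-fold, so equal levels and a doubling both lie within it. Without nicotine replicate 2 the log2 fold change of Gh1 was 0.091. With the newer moderation the interval of Gh1 widened to -1.41 to 2.19.

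Prl, the prolactin gene, took 3.11%, 1.88% and 3.63% of the total after nicotine and 3.64%, 3.59% and 2.58% in controls. Its levels were 30533, 17547 and 37706 CPM in nicotine replicates 1, 2 and 3 and 38038, 36853 and 25328 CPM in control replicates 1, 2 and 3. Nicotine replicate 2, the library with the most Gh1, had the least Prl, and the other nicotine libraries lay within the range of the controls. The means were 28596 ± 10218 CPM after nicotine and 33406 ± 7021 CPM in controls (SD, n = 3 each). The log2 fold change was -0.22 (SE 0.34, 95% interval -0.98 to 0.54, edgeR adjusted p = 0.916). Prl was the only axis gene fitted below 0, and its direction rested on nicotine replicate 2, without which the log2 fold change was 0.022. The files list 22 further genes of the prolactin family, which in rodents serve mainly the placenta. 3 of them had a count in any library, none had more than 4 counts in a library, and 0 passed the filter, while Prl itself had at least 958820 counts in every library.

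The promoter of Prl is shown because, of the axis genes that could be searched, it is the one whose start region in the RefSeq table (GRCr8) holds a core of the Pit-1 binding sequence. The letters searched were ATGNATA on both strands, with N standing for any base, over the 250 bases before and the 50 bases after a gene's start. The table has promoters for 5 of the 7 axis genes, with 7 start sites in all, and 1 of these 7 held a match. Gh1 and Pou1f1 have no promoter there and were not searched. Over all 33469 promoters of that length 9.88% held one. Capitals mark the match, which begins 24 bases before the listed start, at chr17:38298168-38298467 on the minus strand of GRCr8. The counts were made on another build, rn7.
Prl: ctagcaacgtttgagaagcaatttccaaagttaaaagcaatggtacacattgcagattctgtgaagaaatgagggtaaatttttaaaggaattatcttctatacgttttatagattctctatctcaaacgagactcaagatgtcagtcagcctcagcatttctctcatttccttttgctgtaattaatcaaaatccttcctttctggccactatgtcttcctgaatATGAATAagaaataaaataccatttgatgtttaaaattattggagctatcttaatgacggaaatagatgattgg
A match of these letters is a description of the window and not evidence that the factor binds there.

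The balance of the hormone messages was compared within each library as the ratio of Prl counts to Gh1 counts, which does not depend on library size. The ratio was 0.582, 0.152 and 0.436 in nicotine replicates 1, 2 and 3. It was 0.528, 0.528 and 0.481 in control replicates 1, 2 and 3. The controls were nearly alike, whereas the nicotine libraries lay on both sides of them, with nicotine replicate 2 far below. The mean log2 ratio was -1.57 ± 1.02 after nicotine and -0.97 ± 0.08 in controls (SD, n = 3 each), a difference of -0.60 (exact two-sided permutation test, p = 0.4, smallest possible 0.1). The difference shrank to -0.023 without nicotine replicate 2 and grew to -0.99 without nicotine replicate 1, so single nicotine libraries decided its size.

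**Figure D2:**
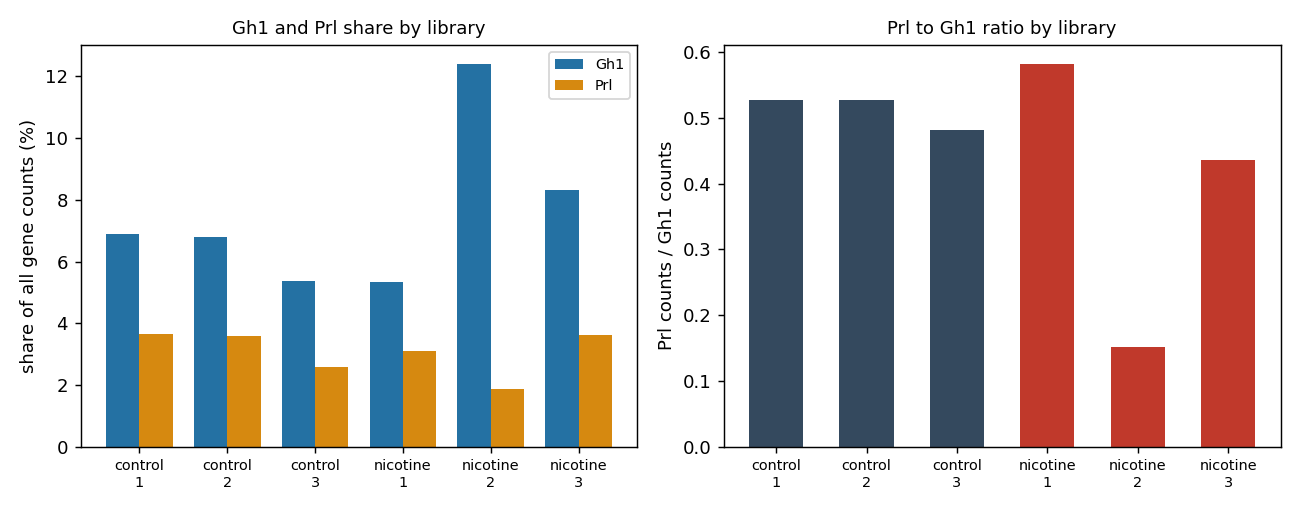
Left, share of all gene counts taken by Gh1 and by Prl in each library, in percent. Right, Prl counts divided by Gh1 counts in the same libraries, with control bars dark and nicotine bars red. The control ratios lie between 0.481 and 0.528, and nicotine replicate 2 stands alone at 0.152.

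Pou1f1, the lineage factor of both hormone cell types, had the narrowest spread of the 7 genes. It was at 412, 347 and 265 CPM in nicotine replicates 1, 2 and 3 and at 317, 305 and 251 CPM in control replicates 1, 2 and 3. Its highest library was nicotine replicate 1, which had the lowest Gh1, so the order of the libraries for the factor was not that for the hormone. This gave a log2 fold change of 0.23 (SE 0.20, 95% interval -0.22 to 0.68, edgeR adjusted p = 0.861). It stayed between 0.073 and 0.38 when 1 library was left out.

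Ghrhr, the receptor through which GHRH drives somatotrophs, was at 33.3, 70.9 and 29.1 CPM in nicotine replicates 1, 2 and 3 and at 27.7, 42.4 and 24.6 CPM in control replicates 1, 2 and 3. Nicotine replicate 2 stood apart at 2.26 times the mean of the other 5 libraries, and the other nicotine libraries were within the control range. The log2 fold change was 0.49 (SE 0.33, 95% interval -0.22 to 1.21, edgeR adjusted p = 0.852) and -0.029 without nicotine replicate 2. Gh1 also had its highest level in nicotine replicate 2, at 1.74 times the mean of the other 5, as did Ghsr, Ghr and Prlr, so this is not particular to Ghrhr and Gh1.

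Ghsr, the ghrelin receptor, was close to the limit of detection. It was counted 38, 148 and 34 times in nicotine replicates 1, 2 and 3, and 16, 29 and 47 times in control replicates 1, 2 and 3. These counts correspond to 0.806, 1.61 and 0.562 CPM after nicotine and 0.591, 0.549 and 1.24 CPM in controls. In control replicate 1, with the fewest counts, the exact 95% Poisson interval ran from 0.338 to 0.959 CPM, which covers counting error only. For Ghsr the log2 fold change was 0.33 (SE 0.50, 95% interval -0.76 to 1.43, edgeR adjusted p = 0.912). It was -0.23 without nicotine replicate 2, so its direction also rested on that library.

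Ghr, the growth hormone receptor, was at 26.1, 28.2 and 16.3 CPM in nicotine replicates 1, 2 and 3 and at 21.0, 25.2 and 13.97 CPM in control replicates 1, 2 and 3. The groups shared most of their range. The log2 fold change was 0.23 (SE 0.25, 95% interval -0.33 to 0.79, edgeR adjusted p = 0.882), and it was 0.069 without nicotine replicate 2 and 0.030 without control replicate 3.

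Prlr, the prolactin receptor, was at 34.7, 55.1 and 20.7 CPM in nicotine replicates 1, 2 and 3. In control replicates 1, 2 and 3 it was at 29.1, 25.8 and 23.6 CPM. The controls were close together, with a 1.23-fold range, whereas the nicotine libraries held both the highest and the lowest value and ranged over 2.66-fold. For Prlr the log2 fold change was 0.50 (SE 0.29, 95% interval -0.14 to 1.14, edgeR adjusted p = 0.848). This was the smallest adjusted p of the 7 genes. Without nicotine replicate 2 the value was 0.075, and without nicotine replicate 3 it was 0.78 with an unadjusted p of 0.00602 and an adjusted p of 0.463 from edgeR.

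**Figure D3:**
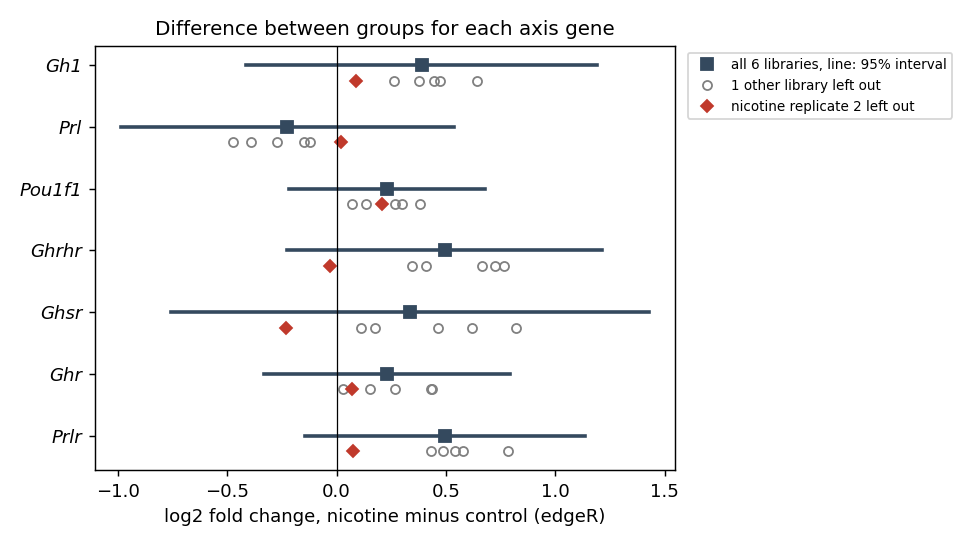
Log2 fold change of each axis gene, nicotine minus control, with its 95% interval from edgeR (squares and lines) and the values with 1 library left out at a time (symbols below each line). Every interval spans 0, and without nicotine replicate 2 (red diamonds) the values lie between -0.23 and 0.21.

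With nicotine replicate 2 included, the axis genes varied more between rats of a group than most genes did. The pooled SD within groups, on the log2 CPM scale, was 0.45 for Gh1, 0.46 for Prl, 0.43 for Ghr, 0.51 for Prlr and 0.57 for Ghrhr. Among the 9727 genes with a mean of at least 10 CPM the median was 0.22. Between 91.9% and 97.1% of those genes had a smaller SD than these 5 genes. Pou1f1, at 0.26, was nearer the middle, with 65.6% of those genes below it. For Ghrhr, Ghsr and Prlr the level in nicotine replicate 2 was 2.06 to 2.26 times the mean of the other 5 libraries, for Ghr it was 1.38 times and for Pou1f1 1.12 times. Prl in that library was 0.521 times the mean of the others.

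By their pattern over the 6 libraries, the genes most like Gh1 were Pomt1, Cnp and Adora1, with Pearson correlations of the log2 CPM of 0.990, 0.990 and 0.987 and a Spearman rho of 0.943 each. Those most like Prl were Nudt2, Rarres2 and Stmp1, with Pearson correlations of 0.999, 0.994 and 0.993 and a Spearman rho of 0.943, 0.829 and 0.943. They were taken from 9726 genes with a mean of at least 10 CPM. The points share the same 6 libraries. A Pearson correlation over 0.9 was reached by 124 genes with Gh1 and by 354 with Prl, so the named genes are not the only ones with such a pattern. Nicotine replicate 2 was the highest library for Gh1 and the lowest for Prl, and its part in these correlations was not tested.

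Lineage factors around somatotrophs and lactotrophs were described from a list of 20 genes, of which 19 were tested. The list is not limited to these cells, as it holds Tbx19, used below as a corticotroph and melanotroph marker. 0 of the 19 were called, and the median log2 fold change was -0.0039, the value of Tbx19. Neurod4, a neurogenic factor of pituitary endocrine cells, was the only gene of this list at an unadjusted p under 0.05, where 2.73% of all genes were lower at that level. It was at 73.0, 67.2 and 83.7 CPM after nicotine and 146, 81.2 and 103 CPM in controls, with overlap between nicotine replicate 3 and control replicate 2. Its log2 fold change was -0.56 (SE 0.22, edgeR adjusted p = 0.831), and -0.30 without control replicate 1. Pitx1, a homeodomain partner of POU1F1 and named after its values were seen, was the only gene of the list without overlap, at 117, 95.1 and 94.7 CPM after nicotine and 64.7, 91.0 and 81.8 CPM in controls (edgeR adjusted p = 0.839), where 6.12% of all genes were higher without overlap. Six6, a homeodomain factor and the most abundant of the list by CPM, had a log2 fold change of -0.12, which was 0.066 without nicotine replicate 2. Nr4a1, an orphan nuclear receptor of the immediate early class and also named after its values were seen, had the lowest value of the list, a log2 fold change of -1.25. It rested on control replicate 1, where it reached 111 CPM while the other libraries had 11.8 to 36.7 CPM, and was -0.13 without it.

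Ligands and receptors that govern release of the hormones were described from a list of 26 genes. 17 were tested and 9 fell below the filter, among them the ligand genes Ghrh, Ghrl, Sst and Trh, with at most 18 counts in a library. 0 of 17 were called. Adcyap1r1, the receptor for PACAP, was at 55.1, 73.5 and 66.7 CPM after nicotine and 45.6, 45.7 and 47.8 CPM in controls. Each nicotine library was above each control library, which 1 of the 17 genes and 6.12% of all genes showed. Its log2 fold change was 0.49 (SE 0.16, edgeR adjusted p = 0.807) and stayed between 0.38 and 0.60 with 1 library left out. Sstr3, a somatostatin receptor, had a log2 fold change of 1.11 (SE 0.44, edgeR adjusted p = 0.832), carried by nicotine replicate 2 at 30.4 CPM against 5.26 to 9.33 CPM elsewhere, and 0.26 without that library. These 2 genes were at an unadjusted p under 0.05 and higher after nicotine, where 3.12% of all genes were. Drd2, the dopamine receptor that restrains lactotrophs, was at 71.7, 94.6 and 143 CPM after nicotine and 86.5, 103 and 155 CPM in controls, with a log2 fold change of -0.16 (SE 0.28, edgeR adjusted p = 0.927) that turned to 0.12 without control replicate 3.

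Signalling below GHR and PRLR was described from 20 genes, of which 19 were tested and 0 called, with a median log2 fold change of 0.11. Socs3, a feedback inhibitor induced by cytokine signals, was the only one of the 19 at an unadjusted p under 0.05, where 2.73% of all genes were lower. It was at 13.98, 10.8 and 10.4 CPM after nicotine and 26.5, 17.0 and 12.1 CPM in controls, a log2 fold change of -0.66 (SE 0.27, edgeR adjusted p = 0.839) that was -0.31 without control replicate 1. Socs2, a feedback inhibitor of growth hormone signalling named after its values were seen, was the only one of the 19 without overlap, near the 6.12% of all genes that were higher without overlap. It was at 25.3, 25.3 and 27.6 CPM after nicotine and 23.3, 21.5 and 23.3 CPM in controls. Its log2 fold change was 0.20 (SE 0.15, edgeR adjusted p = 0.853). The most abundant by CPM were Ptpn11, with a log2 fold change of 0.28, and Grb2, with 0.0088. Without nicotine replicate 2 these were 0.14 and -0.18.

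Cish, a further STAT5 target named after its values were seen, was at 23.4, 14.8 and 10.2 CPM after nicotine and 15.1, 20.4 and 15.1 CPM in controls. Its groups overlapped fully, with a log2 fold change of -0.066 (SE 0.27, edgeR adjusted p = 0.972) that turned to 0.18 without nicotine replicate 3. Its promoter is shown because it carries 4 copies of the sequence that STAT5 dimers recognise. The letters TTCNNNGAA, which read the same on both strands, were searched in the same windows, and 8.87% of all 33469 promoters held at least 1 match. Capitals mark the matches, in chr8:116850719-116851018 on the plus strand of GRCr8.
Cish: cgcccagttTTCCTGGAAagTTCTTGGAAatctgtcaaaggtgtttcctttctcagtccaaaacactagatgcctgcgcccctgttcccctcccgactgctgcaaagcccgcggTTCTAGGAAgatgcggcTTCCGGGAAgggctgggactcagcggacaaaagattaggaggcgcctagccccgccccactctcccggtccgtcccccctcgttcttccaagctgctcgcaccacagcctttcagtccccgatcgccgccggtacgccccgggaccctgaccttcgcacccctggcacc
In the axis promoters searched, which leave out Gh1 and Pou1f1, the same letters were found once in Prl (TTCTGTGAA) and once in 1 of the windows of Prlr (TTCTAGGAA).

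Cyclic AMP signalling, the route below GHRHR, was described from 16 genes, all tested, with 0 called, 0 at an unadjusted p under 0.05 and a median log2 fold change of 0.020. Gnas, which encodes the stimulatory G protein subunit, was at 4745, 5249 and 5468 CPM after nicotine and 3972, 4209 and 5344 CPM in controls. Its log2 fold change was 0.19 (SE 0.23, edgeR adjusted p = 0.891), with 0.11 without control replicate 1 and 0.34 without control replicate 3. Prkar1a, a regulatory subunit of protein kinase A, had a log2 fold change of -0.15, which was 0.019 without control replicate 3. Prkaca, a catalytic subunit named after its values were seen, was the only one of the 16 without overlap, near the 6.12% of all genes that were higher without overlap. It was at 107, 122 and 111 CPM after nicotine and 97.9, 91.5 and 106 CPM in controls (edgeR adjusted p = 0.854).

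**Figure D4:**
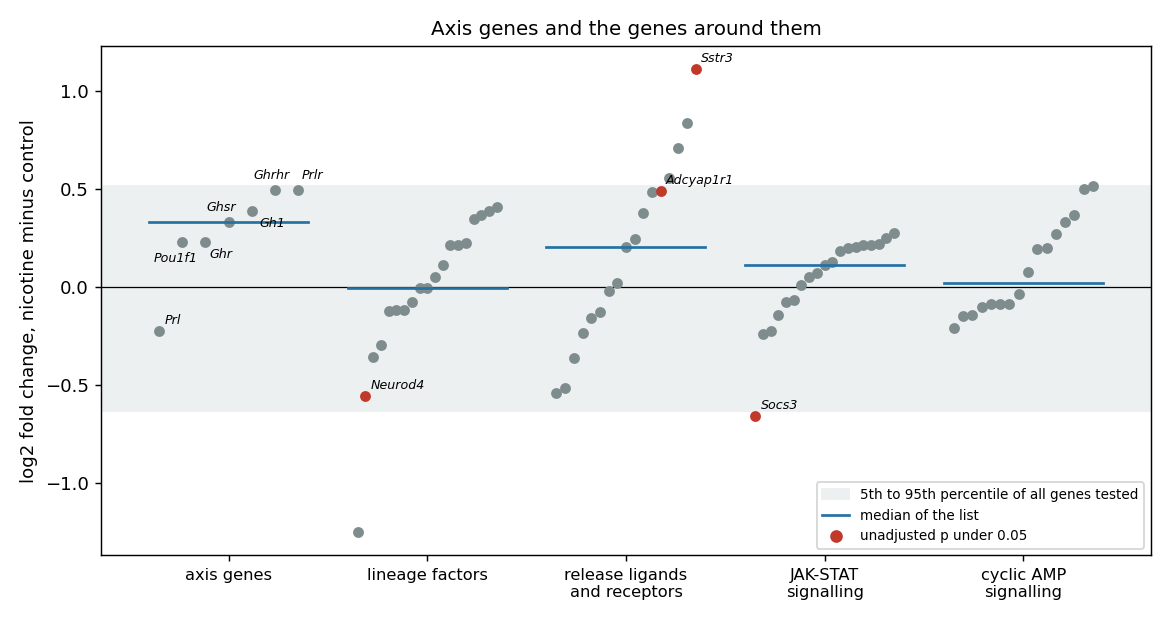
Log2 fold change, nicotine minus control, of the 7 axis genes and of the tested genes in 4 lists around them, with 1 point per gene sorted by value, the median of each list as a blue line and the 5th to 95th percentile of all genes tested (-0.63 to 0.52) as a grey band. All 7 axis genes lie within the band, and the 4 red points are genes with an unadjusted p under 0.05.

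Markers of other cells of the gland were summed in each library, and nicotine replicate 2 was at an extreme for several lists. By edgeR 0 of the markers were called, as were 0% of all genes. By DESeq2 1 of the 6 red blood cell markers was called and 0 in the other marker lists, against 0.339% of all genes. The sum of the 5 gonadotroph markers, mostly Cga, was highest in nicotine replicate 2. It ran from 2436 to 4819 CPM after nicotine and from 2061 to 2953 CPM in controls. Of these 5 genes 3 were higher after nicotine at an unadjusted p under 0.05, where 3.12% of all genes were. Lhb, the luteinizing hormone subunit gene and named after its values were seen, was at 820 CPM in nicotine replicate 2 and 75.6 to 223 CPM elsewhere. Its log2 fold change was 1.83 (edgeR adjusted p = 0.807), and 0.89 without that library (edgeR unadjusted p = 0.00388). The 5 corticotroph and melanotroph markers tested summed to between 20717 and 46604 CPM after nicotine and between 36309 and 72295 CPM in controls. This sum, mostly Pomc, was lowest in nicotine replicate 2. The single markers did not move together there. Tbx19 (85.4 CPM) and Crhr1 (36.3 CPM) had their highest level in that library, and Pcsk2 and Pax7 were at neither extreme. The sum of the 3 thyrotroph markers, mostly Tshb, was also lowest in nicotine replicate 2, at 555 CPM against 960 to 2320 CPM elsewhere. Tshb and Trhr were each lowest there, whereas Dio2, at 59.7 CPM, was lowest in control replicate 3 at 45.8 CPM.

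Nicotine replicate 2 also had the highest sum of the 6 posterior lobe markers, at 143 CPM against 56.1 to 94.1 CPM, and the lowest sum of the 6 red blood cell markers, at 3133 CPM against 4873 to 16495 CPM. The posterior lobe sum was mostly Scn7a. Rax, Lhx2, Nkx2-1 and Col25a1 were highest in nicotine replicate 2 and lowest in control replicate 3. In that control they were at 0.291, 0.660, 0.185 and 0.925 CPM, against at least 2.97, 2.42, 1.36 and 3.40 CPM elsewhere. Scn7a and Gfap were lowest in other libraries. Lhx2, Nkx2-1 and Col25a1 are the posterior lobe markers counted below as higher. The 6 endothelial markers ranged from 165 to 275 CPM after nicotine and from 134 to 178 CPM in controls, the 6 leukocyte markers from 110 to 238 CPM and from 189 to 260 CPM. The 6 folliculostellate and stem cell markers ranged from 193 to 252 CPM and from 176 to 204 CPM, and the 5 neuron and oligodendrocyte markers from 330.0 to 383 CPM and from 319 to 380.4 CPM. No tested marker was at 0 in any library, and for all 9 lists the summed levels of the groups overlapped. At an unadjusted p under 0.05 in edgeR, 4 of 6 endothelial and 3 of 6 posterior lobe markers were higher after nicotine, against 3.12% of all genes. By the same measure 4 of 6 red blood cell, 1 of 6 leukocyte and 1 of 5 corticotroph and melanotroph markers were lower, against 2.73% of all genes. In the thyrotroph, folliculostellate and neuron lists 0 were. The part that these cell types had in the axis gene values was not tested.

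**Figure D5:**
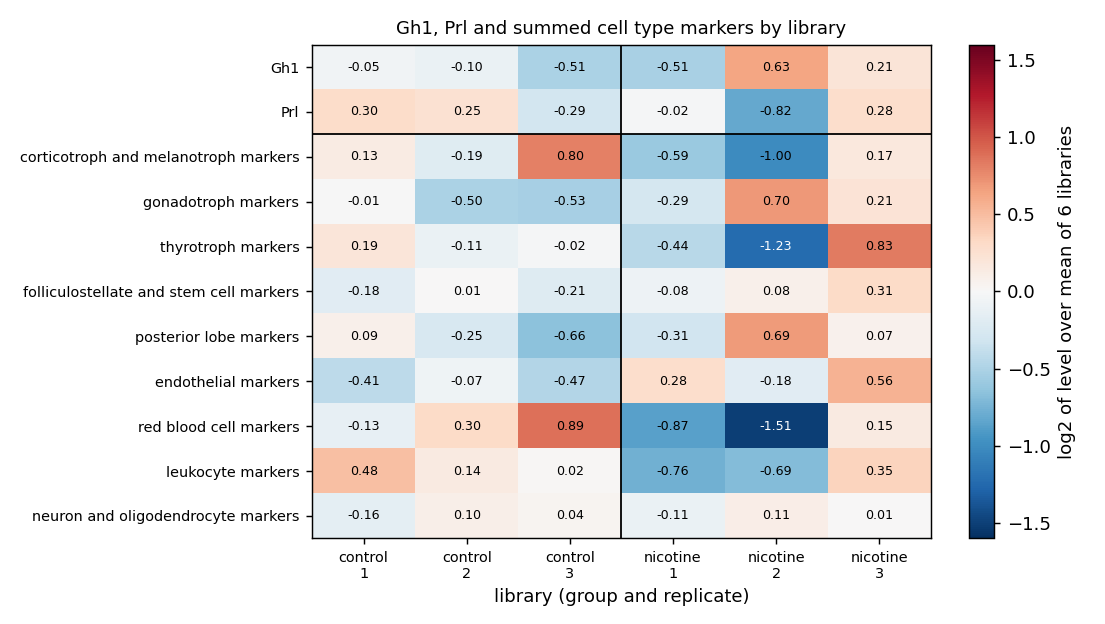
Level of Gh1 and Prl and summed level of 9 lists of cell type markers in each library, as the log2 of the level over the mean of the 6 libraries. In nicotine replicate 2 Gh1 is at 0.63 and the gonadotroph and posterior lobe markers at 0.70 and 0.69, while Prl is at -0.82 and the thyrotroph markers at -1.23.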

How the data were processed

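Strand-specific paired-end libraries were made from total pituitary RNA. The authors mapped the reads to rn7 with HISAT2 2.1.0 and counted them per gene symbol with featureCounts on the UCSC ncbiRefSeq annotation. The deposited values are raw counts, 1 file per library. How multi-mapped reads were treated, the strand setting, and whether reads or pairs were counted are not given in the sources used here.

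Calculations used R 4.3.3, edgeR 4.0.16, limma 3.58.1 and DESeq2 1.42.0. filterByExpr kept 17292 of the 24546 genes with a count. Library sizes were scaled by TMM, and groups were compared by edgeR's quasi-likelihood test in its default form, with Benjamini-Hochberg adjustment over all genes tested. Standard errors and intervals come from its F statistic. The default form was kept because the newer moderation (legacy = FALSE), added after seeing the data, widened the intervals of Gh1 and Prl well beyond the spread of their libraries. CPM are not adjusted for gene length, so levels of different genes are not compared. The script was tested on simulated data.

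The members, lists and promoter motifs were chosen with earlier results of these data known. Named genes are the members, genes of the 4 pathway lists at an unadjusted p under 0.05, the 2 most abundant of each of these lists by CPM, and the 3 genes most like Gh1 and Prl, and others are named as chosen after their values were seen. 1 gene that this rule names is not reported here. Replicate numbers are not described as pairs in the sources used here, and the main fit left them out. Alternatives were DESeq2, other scalings and filters, voom, thinning, a replicate block and leaving out each library.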

Additional observations from a re-analysis of the deposited data

How the results depend on the processing

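The number of axis genes called stayed at 0 under every alternative run. Over all genes DESeq2 called 61 and the fit with no filter on low counts 30, against 0. A replicate block, with the replicate number as a term, also called 0 of the 7 axis genes and 2 of all genes. The deviations of same-numbered libraries from their group means correlated at 0.026, -0.20 and -0.078. With 3 libraries a group, these values cannot show whether the numbers pair the libraries. For the Prl to Gh1 ratio, whose difference is the same with pairing by construction, the exact sign-flip test gave p = 0.5 (smallest possible 0.25). Of 112 comparisons of the log2 fold change of a single axis gene with an alternative, 108 kept their direction and 4 reversed. Without nicotine replicate 2 the values were 0.022 for Prl, -0.029 for Ghrhr and -0.23 for Ghsr, and leaving out each library in turn gave -0.47 to 0.022 for Prl, -0.029 to 0.77 for Ghrhr and -0.23 to 0.82 for Ghsr. With voom and sample quality weights Ghr was at -0.011. The cause of these reversals was not tested. The lowest adjusted p over these comparisons was 0.463, for Prlr without nicotine replicate 3. The 4 lists around the axis had 0 genes called under every alternative. In the main edgeR fit 4 of their 71 tested genes were at an unadjusted p under 0.05, near the 5.85% of all genes. Over the alternatives the count ran from 1 of 71 (without control replicate 1) to 8 of 71 (without nicotine replicate 2). The share over all genes was not computed for these fits, so the range is not read as a result about the lists. Prlr also came to an unadjusted p of 0.0466 with no filter (adjusted p = 0.807 from edgeR). With 3 rats a group, the width of the 95% intervals of the axis genes limits what these data can show. For Ghsr counting error adds to this.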
